A study of Mus musculus with 9 samples.

Results

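Levels are described here for 10 immediate early genes, Fos, Fosb, Jun, Junb, Jund, Egr1, Ier2, Nr4a1, Atf3 and Dusp1, across 9 cell labels of the adult mouse brain vasculature. The genes were chosen by name and are 10 of the 46517 gene rows of the count table, and all 10 were found under these symbols. Cells came from microvascular fragments that had been dissociated mechanically and with enzymes, sorted onto plates of 384 wells and read with Smart-seq2, a method that reads whole transcripts and uses no molecular identifiers. The table held 1235 cells on 4 plates. The depth of a cell ranged from 100021 to 854836 reads, and its median was 202225. The labels name adult mice and no treatment, and their strain, genotype and sex are not stated there.

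The labels were aEC (116 cells), capilEC (787), vEC (45), CP-EC (17), PC (54), aSMC (41), vSMC (29), FB (9) and MG (137). The sources do not spell them out, nor say how they were assigned. Since a label is 1 deposited sample and the animals behind the cells are unknown, labels could not be tested against each other. Plates are used below to show spread and are not replicates of a label. Plate values are given for plates with 5 or more cells of the label, which left 1 plate for CP-EC and none for FB. Reads were summed over the cells of a label and scaled to counts per 1000000 reads (CPM), so that reads from few highly expressing cells and from many weakly expressing cells cannot be told apart in these sums. The distribution over cells is therefore given as well.

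The labels were checked against marker lists. The 15 pan endothelial markers summed to 15863 to 23164 CPM in the 4 EC labels, and the 11 microglia markers to 36836 CPM in MG against at most 856 CPM elsewhere. The 13 pan mural markers summed to 11173 to 17499 CPM in PC, aSMC and vSMC, against at most 1633 CPM elsewhere. Endothelial markers also summed to 5711 CPM in PC, 4297 CPM in vSMC and 1848 CPM in aSMC, and the 10 astrocyte markers to 2775 CPM in PC, 2696 CPM in vSMC and 5897 CPM in FB. FB rested on 9 cells and also held 4900 CPM of the 7 pericyte markers. Lists for subtypes overlapped more. Within the EC labels the 10 arterial markers were highest in aEC (2019 CPM), yet vSMC held more of them (2523 CPM). The 8 venous markers peaked in vEC (6595.5 CPM). The 8 capillary markers peaked in capilEC (9529 CPM), and aEC held 5577 CPM of them. Pericyte markers peaked in PC (14533.5 CPM), but vSMC held 7873 CPM. The 7 smooth muscle markers peaked in aSMC (22553 CPM), ahead of vSMC (11817 CPM) and PC (4149 CPM).

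Immediate early genes are transcribed within minutes of a stimulus from factors already present in the cell, without new protein synthesis. Fos proteins pair with Jun proteins to form the transcription factor AP-1, Atf3 is a stress-induced relative that binds similar sites, and Egr1 and Nr4a1 are a zinc finger factor and an orphan nuclear receptor. Dusp1 encodes a phosphatase that switches off the MAP kinases that induce the group. In brain tissue these genes respond to neuronal activity, growth factors, flow and injury, and enzymatic dissociation at warm temperature is known to induce them.

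Promoter windows are shown for 5 members because they carry the clearest shared letters of the group and one member without them. The windows were taken from RefSeq (GRCm38.p6) and cover the 250 bases before the annotated start, printed 5′ to 3′ on the gene's strand. Windows for 8 members could be searched. Capitals mark the core of the cAMP response element, TGACG on either strand, and the full element TGACGTCA in Dusp1, which contains that core on both strands. The windows are Fos at chr12:85473640-85473889 (plus strand), Fosb at chr7:19310046-19310295 (minus), Nr4a1 at chr15:101266596-101266845 (plus), Dusp1 at chr17:26508473-26508722 (minus) and Jun at chr4:95052223-95052472 (minus).

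Fos: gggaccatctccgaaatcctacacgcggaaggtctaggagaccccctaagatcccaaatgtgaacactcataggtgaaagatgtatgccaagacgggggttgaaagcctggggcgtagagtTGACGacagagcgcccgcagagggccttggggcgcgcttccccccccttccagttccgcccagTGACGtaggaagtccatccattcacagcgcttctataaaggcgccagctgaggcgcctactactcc

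Fosb: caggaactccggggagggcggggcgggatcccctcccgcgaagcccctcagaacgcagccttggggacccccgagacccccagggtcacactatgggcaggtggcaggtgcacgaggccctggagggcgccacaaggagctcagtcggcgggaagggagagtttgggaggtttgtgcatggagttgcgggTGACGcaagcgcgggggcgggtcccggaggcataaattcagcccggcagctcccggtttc

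Nr4a1: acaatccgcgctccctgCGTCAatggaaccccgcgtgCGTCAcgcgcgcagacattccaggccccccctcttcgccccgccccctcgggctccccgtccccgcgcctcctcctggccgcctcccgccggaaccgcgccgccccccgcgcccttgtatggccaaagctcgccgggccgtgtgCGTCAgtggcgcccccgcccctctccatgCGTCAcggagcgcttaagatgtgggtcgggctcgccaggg

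Dusp1: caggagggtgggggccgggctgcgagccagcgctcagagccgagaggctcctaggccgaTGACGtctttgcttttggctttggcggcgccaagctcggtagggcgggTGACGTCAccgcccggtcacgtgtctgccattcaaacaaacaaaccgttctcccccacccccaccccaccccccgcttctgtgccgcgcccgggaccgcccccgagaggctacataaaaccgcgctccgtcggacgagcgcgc

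Jun: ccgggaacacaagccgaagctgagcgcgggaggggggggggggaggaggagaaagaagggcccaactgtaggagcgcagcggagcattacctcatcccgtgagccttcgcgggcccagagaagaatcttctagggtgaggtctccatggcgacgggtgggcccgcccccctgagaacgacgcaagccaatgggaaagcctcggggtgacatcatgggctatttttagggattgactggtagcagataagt

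The core stood in 6 of the 8 member windows: 4 times in Nr4a1, 3 times in Dusp1, 2 times in Fos, and once each in Fosb, Junb and Atf3. In Fos the cores began 129 and 66 bases before the start. Jun and Jund held none. The Jun window holds TGACATCA, which the exact search does not count. The Jund window ends at chr8:70697738, upstream of the gene start at 70698949, so it may not be the promoter of the counted gene. The Nr4a1, Dusp1 and Atf3 windows lie within the gene spans given below, so they sit before an internal start of those genes and not at the outer end. Among all 32851 RefSeq windows of the same length, 17.8% held the core, and 27.1% of the 9178 windows with at least 60% G and C. The full element stood in 1 of 8 member windows (Dusp1) against 1.55% of all windows. The GC box GGGCGG on either strand stood in 6 of 8 windows, against 32.7% of all windows and 76.5% of the GC-rich ones. The AP-1 site (TGACTCA, which reads TGAGTCA on the other strand) was in 0 of 8 member windows and 4.46% of all, and the CArG box was in 0 of 8 and 1.47%. The motifs were chosen with the windows in view. A match describes letters in this window, and its absence says nothing about a factor that binds elsewhere.

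In the pooled sums all 10 genes had their highest level in MG (7 genes) or aSMC (Fos, Fosb and Nr4a1). MG or aSMC also led on single plates, among the 7 labels with all 4 plates, with these exceptions. Jund was highest in vSMC on plate s480s (447 CPM) and Fosb in PC on plate s483s (187 CPM). How many of all genes peak in MG or aSMC was not counted. Summed over the 10 genes, the level was 20535 CPM in MG and 14738 CPM in aSMC. The other labels followed at 5450 CPM in FB, 4907 in aEC, 4515 in PC, 4416 in vEC, 4037 in CP-EC, 3074 in vSMC and 2155 in capilEC. By plate the sum ranged from 18538 to 22248 CPM in MG and from 12299 to 17463 CPM in aSMC, so these ranges did not overlap each other. No plate of another label passed 8283 CPM, the value of PC on plate s480s. In capilEC the plates held 1757 to 2394 CPM, below every plate of aEC (4115 to 6613 CPM) and of vEC (3495 to 6471 CPM). The vSMC sum spread most, from 538 CPM on plate s483s to 6259 CPM on plate s169s.

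**Figure D1:**
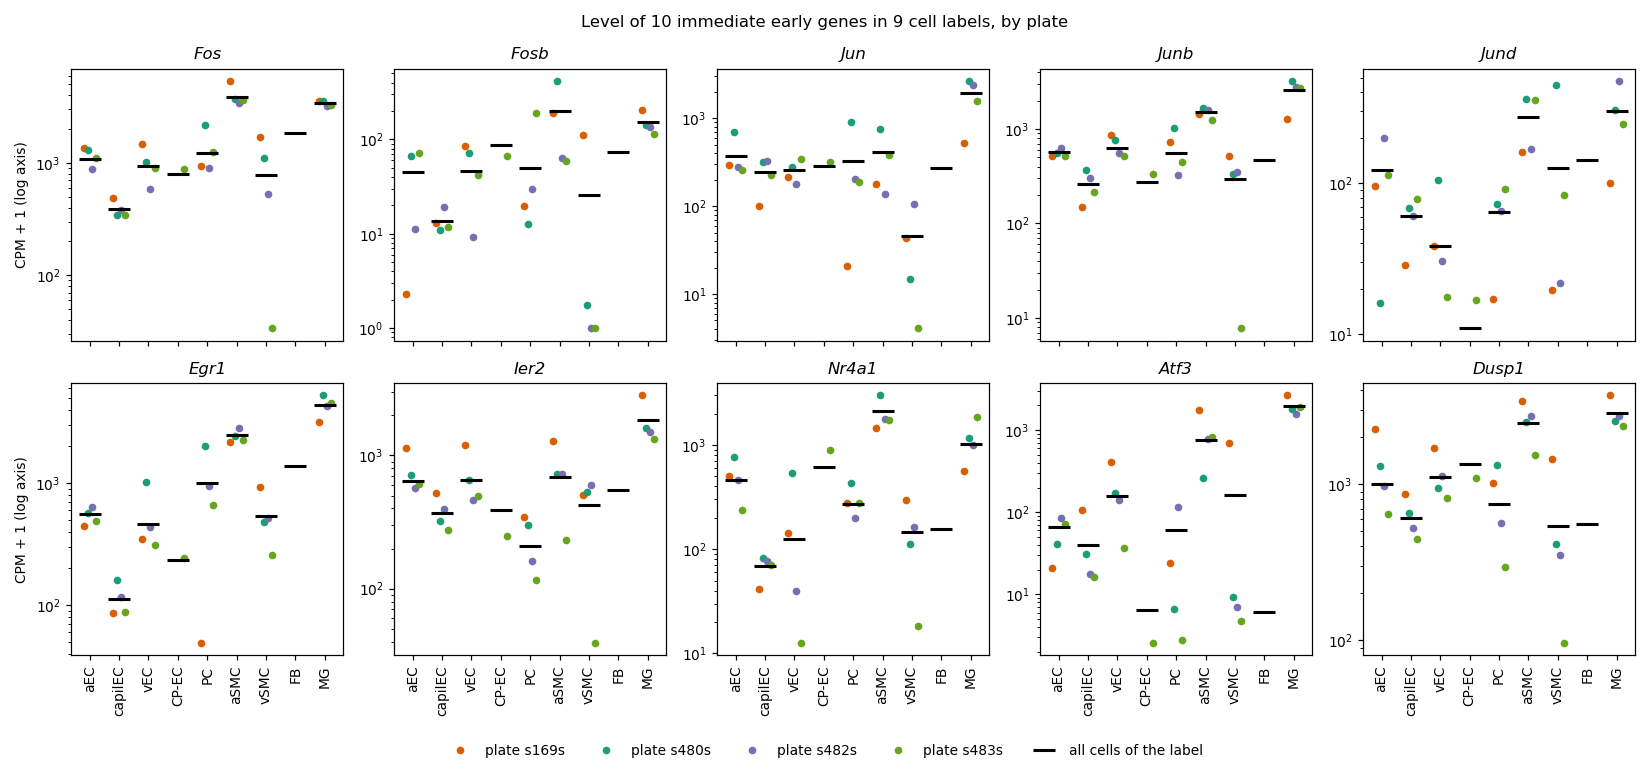
Level of each gene (CPM + 1, log axis) in the 9 labels, with 1 coloured point per plate that held at least 5 cells of the label and a black bar for all cells of the label. The bars of MG or aSMC are the highest in all 10 panels, and the points of vSMC and PC are spread widely.

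Among the Fos genes, Fos (GRCm38 chr12:85473890-85477273, plus strand, gene ENSMUSG00000021250) had a level of 3838 CPM in aSMC, 3442 in MG, 1844 in FB, 1236 in PC, 1077 in aEC, 943 in vEC, 795 in CP-EC, 778 in vSMC and 386 in capilEC. Exact Poisson 95% intervals for Fos were 383 to 389 CPM in capilEC and 756 to 800 CPM in vSMC. These intervals treat reads as independent, which PCR copies without molecular identifiers are not, so they do not measure the error of the sums. In vSMC the top 3 cells gave 76.1% of the Fos reads. The MG plates lay close together, at 3539, 3566, 3232 and 3293 CPM on plates s169s, s480s, s482s and s483s. The aSMC plates were at 5371, 3674, 3440 and 3667 CPM in the same order. Their range overlapped that of MG, but within each of the 4 plates aSMC stood above MG. In vSMC the plates ran from 32.8 CPM (s483s) to 1687 CPM (s169s), and in capilEC from 342 to 490 CPM. The capilEC plates were below every aEC plate (880 to 1346 CPM) and every vEC plate (581 to 1473 CPM).

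Fosb (chr7:19302696-19310051), a close relative of Fos, stood at 197 CPM in aSMC, 151 CPM in MG, 87.0 in CP-EC, 72.4 in FB, 49.2 in PC, 45.0 in vEC, 43.7 in aEC, 24.8 in vSMC and 12.7 in capilEC. The MG plates (112 to 204 CPM) all lay above the capilEC plates (9.99 to 18.0 CPM). The aSMC plates ran from 57.4 to 415 CPM and overlapped those of MG. The PC plates ran from 11.8 to 187 CPM, and on plate s483s PC stood above MG (112 CPM). In aSMC 1 cell gave 35.7% of the Fosb reads, in PC 1 cell gave 60.5%, and in FB 1 cell gave 56.8%.

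The 3 Jun genes encode the partners of Fos. Jun (chr4:95049034-95052222) was at 1952 CPM in MG, 408 in aSMC, 366 in aEC, 327 in PC, 282 in CP-EC, 270 in FB, 259 in vEC, 243 in capilEC and 45.3 in vSMC. The MG plates spread from 515 to 2647 CPM, and plate s169s was the low one. Outside MG and vSMC the labels were within a narrow band, and neighbours in the order overlapped by plate wherever both had at least 2 plates. In FB a single cell gave 99.0% of the Jun reads, so that level describes 1 cell.

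Junb (chr8:84974484-84978718) was at 2584 CPM in MG and 1510 CPM in aSMC, then 632 CPM in vEC, 565 CPM in aEC, 552 in PC, 464 in FB, 296 in vSMC, 275 in CP-EC and 258 in capilEC. The aSMC plates (1254 to 1653 CPM) lay above all vEC plates (514 to 859 CPM) and overlapped those of MG (1263 to 3227 CPM). Jund (chr8:70698949-70700616), the Jun gene known for steady rather than induced expression in many tissues, was at 298 CPM in MG, 276 in aSMC, 141 in FB, 125 in vSMC, 121 in aEC, 63.4 in PC, 59.5 in capilEC, 37.3 in vEC and 9.97 in CP-EC. The MG plates (98.9 to 476 CPM) and the aSMC plates (161 to 358 CPM) overlapped. The vSMC plates ran from 18.6 to 447 CPM, and on plate s480s vSMC stood above aSMC (358 CPM).

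Atf3 (chr1:191170296-191218039) had the widest range of the 10 genes across labels, taken as its highest over its lowest level. It stood at 1964 CPM in MG, 754 in aSMC, 160 in vSMC, 158 in vEC, 65.8 in aEC, 59.8 in PC, 38.8 in capilEC, 5.44 in CP-EC and 5.08 in FB. The MG plates held 1580 to 2641 CPM and the aSMC plates 261 to 1779 CPM. These ranges overlapped, but within each of the 4 plates MG stood above aSMC. The vSMC level came almost wholly from plate s169s at 699 CPM, while the other 3 plates held 3.71 to 8.38 CPM. The 3 vSMC cells with the most Atf3 reads gave 95.8% of that label's reads.

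Egr1 (ENSMUSG00000038418) stood at 4407 CPM in MG, 2479 CPM in aSMC, 1387 in FB, 1000.4 in PC, 562 in aEC, 536 in vSMC, 458 in vEC, 234 in CP-EC and 111 in capilEC. Every MG plate (3187 to 5241 CPM) was above every aSMC plate (2184 to 2854 CPM), and every plate of aEC (447 to 641 CPM) and vEC (311 to 1016 CPM) was above every capilEC plate (84.7 to 160 CPM). The PC plates ran from 48.0 CPM (s169s) to 2001 CPM (s480s).

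Nr4a1 (chr15:101254269-101274795) was at 2119 CPM in aSMC, 1022 in MG, 611 in CP-EC, 457 in aEC, 271 in PC, 154 in FB, 144 in vSMC, 124 in vEC and 67.5 in capilEC. The aSMC plates (1446 to 2983 CPM) overlapped those of MG (563 to 1852 CPM). The aEC plates (237 to 773 CPM) all stood above the capilEC plates (40.9 to 82.1 CPM), whereas the vEC plates ran from 11.7 to 539 CPM and overlapped them. In FB a single cell gave 97.5% of the Nr4a1 reads.

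Ier2 (chr8:84661331-84662852), a nuclear protein of the early response, was at 1850 CPM in MG and 685 CPM in aSMC, then 651 CPM in vEC, 646 CPM in aEC, 553 in FB, 421 in vSMC, 390 in CP-EC, 370 in capilEC and 208 in PC. The MG plates (1336 to 2817 CPM) all lay above the aSMC plates (230 to 1293 CPM), which overlapped those of vEC (461 to 1197 CPM). Dusp1 (chr17:26505590-26562128), the phosphatase, had the narrowest range. It stood at 2864 CPM in MG, 2473 in aSMC, 1347 in CP-EC, 1108 in vEC, 1003 in aEC, 749 in PC, 609 in capilEC, 560 in FB and 544 in vSMC. The MG plates (2361 to 3709 CPM) overlapped those of aSMC (1544 to 3419 CPM).

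These levels compare 1 gene between labels. To compare genes within a label, CPM were divided by the length of the exons joined over transcripts in GENCODE M21 (GRCm38). On this scale Fos led in 6 labels, with 1632 CPM per kilobase in aSMC and 1463 in MG. Ier2 led in capilEC (243 CPM per kilobase) and vEC (428, with Fos close at 401), and Dusp1 led in CP-EC (407). The order depends on the joined lengths, such as 3311 bases for Dusp1 and 1522 for Ier2, and which transcripts the cells used is not known. Fosb was last in 7 labels, from 2.03 CPM per kilobase in capilEC to 31.5 in aSMC. Several members share exon bases with a gene on the opposite strand: Jun with Junos, Junb with Prdx2, Jund with Gm11175 and Dusp1 with Ergic1. The sources do not state whether the counting used strand, so reads in those bases cannot be told apart.

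Single cells showed how the sums arose. In capilEC the median cell held 36.5 CPM of Fos, against 386 CPM in the sum, and the 79 cells with the most Fos reads gave 73.9% of the label's reads. In MG the median cell held 3365 CPM and the top 14 cells gave 23.7%, and in aSMC the median cell held 4187 CPM and the top 4 cells gave 19.5%. PC and vSMC resembled capilEC in this respect, with median cells at 46.5 and 33.9 CPM of Fos and 57.2% and 76.1% of the reads in the top 5 and top 3 cells. The 90th percentile of PC cells, at 5578 CPM, lay near that of aSMC (6675 CPM) and MG (6406 CPM). Fos reads were thus spread over most aSMC and MG cells and concentrated in few PC, vSMC and capilEC cells.

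Egr1 gave the same picture, with a median cell of 4756 CPM in MG, 2832 in aSMC, 53.8 in PC, 30.8 in aEC and 23.8 in capilEC. Nr4a1 differed between the leading labels, since its median cell was 1656 CPM for aSMC but 34.4 CPM for MG, where the top 14 cells gave 57.9% of the reads. Atf3 went the other way, with a median cell of 1459 CPM in MG and 81.7 CPM in aSMC. Dusp1 was broadly present in aEC, vEC and CP-EC as well, with median cells of 634, 717 and 895 CPM against 64.9 CPM in capilEC.

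**Figure D2:**
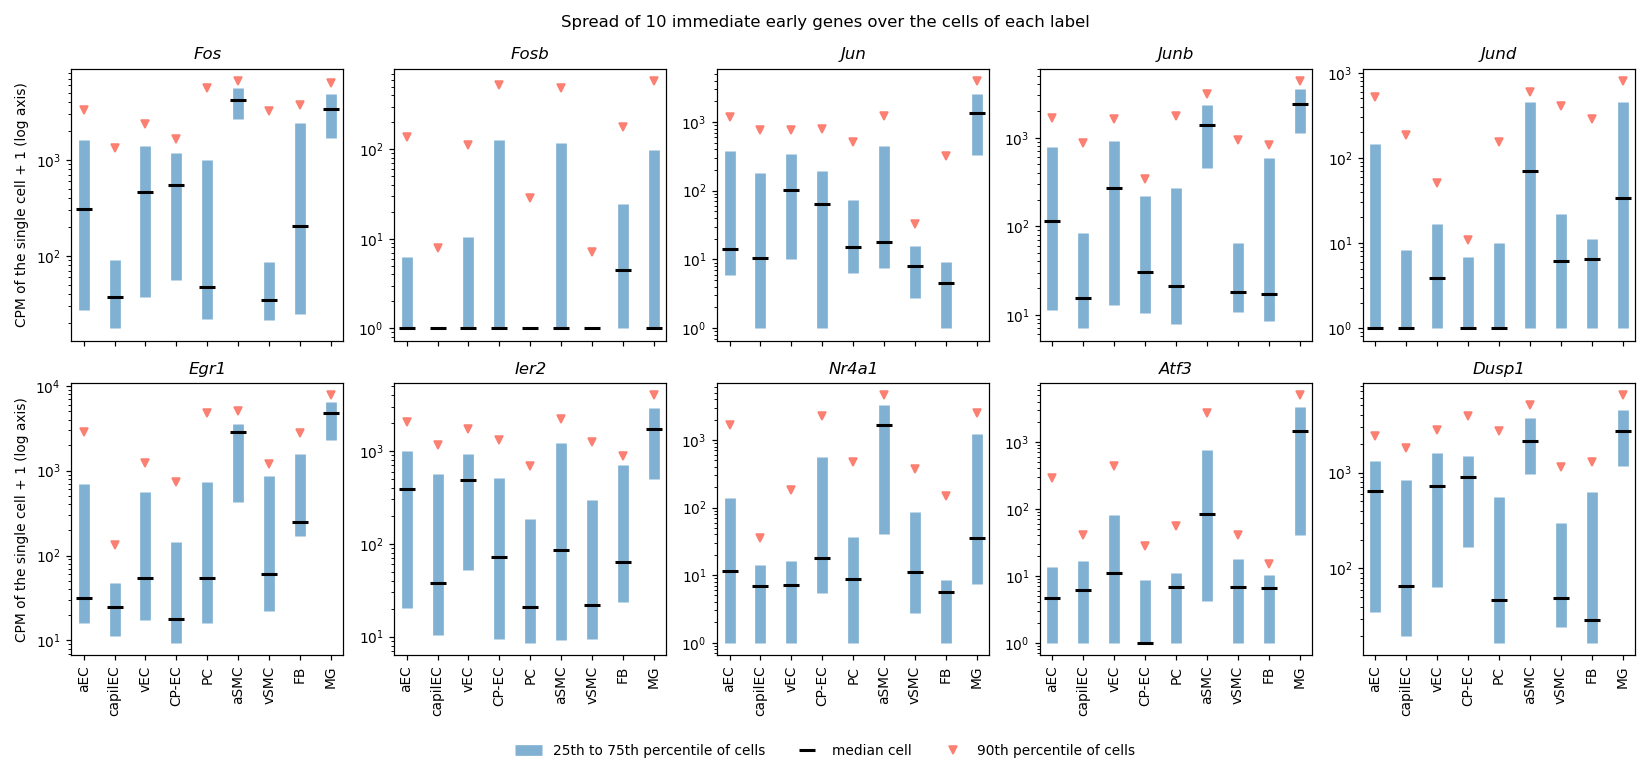
CPM + 1 of single cells (log axis) for each gene and label, with a blue bar from the 25th to the 75th percentile of cells, a black line at the median cell and a red triangle at the 90th percentile. For Fos, Junb, Egr1 and Dusp1 the medians of aSMC and MG stand apart, while in capilEC the median is low and the triangle far above it.

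Shares of cells with a read were compared after thinning each cell at random to 100000 reads, which left out no cell. Fos was read in 89.96% of capilEC cells, with an exact Clopper-Pearson 95% interval of 87.6 to 92.0%. In aSMC the share was 97.6% (87.1 to 99.9%), and in MG it was 100% (97.3 to 100%). Without thinning the capilEC share was 97.6%. Shares of Fos were thus high everywhere while levels differed, and no label is known to lack these genes, so how much of a single read reflects stray RNA was not tested. Fosb was read in 12.96% of cells in capilEC (10.7 to 15.5%), and the MG share was 37.2% (29.1 to 45.9%). For Atf3 the share was 45.5% in capilEC (42.0 to 49.0%) against 88.3% in MG (81.7 to 93.2%). These intervals cover counting error only, and PCR reads without identifiers are not independent molecules.

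**Figure D3:**
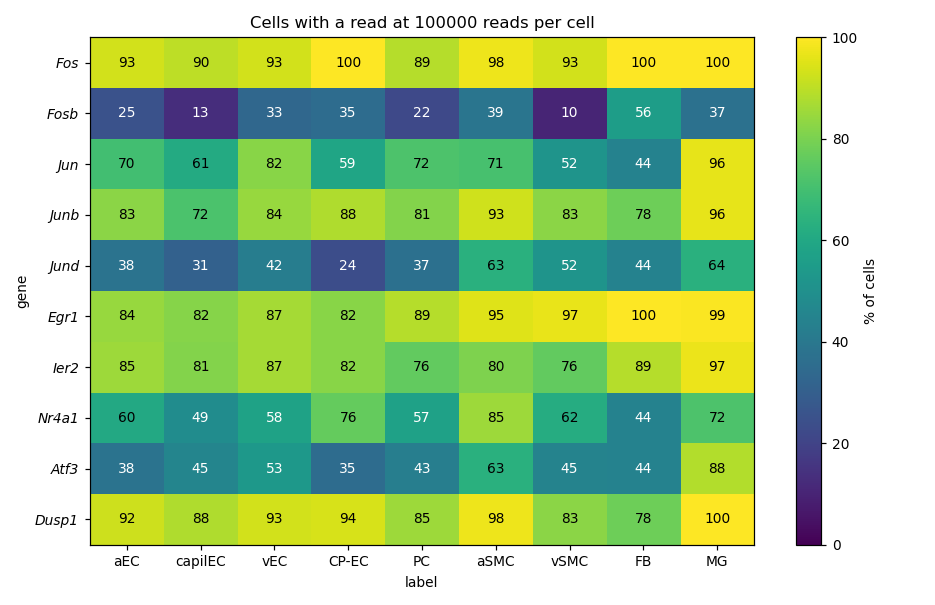
Percent of cells with at least 1 read of each gene (rows) in each label (columns) after thinning to 100000 reads per cell, as colour and number. Low shares are dark. Fos runs from 88.9% in PC to 100%, Fosb is the darkest row, and Jun and Atf3 are highest in MG.

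Of the 10 genes, 5 were read in at least 50% of thinned cells in every label (7 without thinning). The median number of members read in a thinned cell was 6 in capilEC, 8 in aSMC and FB and 9 in MG, and 7 in the other labels. At least 8 members were read in 83.2% of MG cells, 65.9% of aSMC cells and 22.1% of capilEC cells. All 10 were read in 26 of 137 MG cells, 9 of 41 aSMC cells and 14 of 787 capilEC cells. Only 1 cell, a capilEC cell, held none of them.

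Labels were then compared in 6 pairs across all genes. A difference is log2 of CPM + 5 in the first label minus that in the second. The size rule asked that a gene differ by at least 1 log2 unit, reach 50 CPM in the higher label and have a read in at least 50% of that label's cells. This rule describes these samples and is no test.

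In aEC against capilEC, 4 members were higher by the rule, Fos, Junb, Egr1 and Nr4a1, against 0.573% of the 11520 genes measured (over 5 CPM in either label). None was lower, against 0.495% of genes. Nr4a1 differed by 2.67 log2 units (457 against 67.5 CPM) and by 1.71 to 3.46 over the 4 plates. Egr1 differed by 2.29 (1.79 to 2.42 over plates), Fos by 1.47 (1.19 to 1.89) and Junb by 1.12 (0.57 to 1.75). Dusp1 at 0.72 and Ier2 at 0.79 were higher on all 4 plates but under the rule. Fosb, Jun, Jund and Atf3 changed sign between plates. Without plate s169s Junb differed by 0.96 and no longer met the rule, while Atf3 did at 1.55, and without plate s480s Jund did at 1.35. With equal weight for every plate Dusp1 met the rule at 1.05. The median difference of the 10 genes was 1.04, and that of all genes measured 0.00.

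In vEC against capilEC, 4 members were higher, Fos, Junb, Egr1 and Atf3, against 1.3% of 11820 genes, and none was lower, against 1.15%. Egr1 differed by 2.00 (1.77 to 2.63 over plates), Atf3 by 1.90 (1.02 to 2.72), and Fos and Junb by 1.28 each. Nr4a1 changed sign between plates here, from -2.16 to 2.64, and met the rule at 1.22 without plate s482s and at 1.44 without s483s. It also met the rule with equal weight for every cell (1.29) or every plate (1.38) and after thinning (1.28). Junb lost its call without plate s169s, at 0.98. Whether aEC and vEC differ in their distance from capilEC was not tested, since both are set against the same capilEC cells. The members' median was 1.07 and that of all genes 0.07. By size alone, Egr1, Atf3 and Fosb passed the 95th percentile of all genes measured (1.41), and the other members did not.

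Next, the average level over the labels aEC, capilEC and vEC (the endothelial mean) was compared with the average over PC, aSMC and vSMC (the mural mean), each label counting equally. No member was higher, against 3.89% of 12714 genes, and 5 were lower in the endothelial mean, against 2.04%. These were Nr4a1 (-1.94), Atf3 (-1.83), Egr1 (-1.82), Fos (-1.28) and Jund (-1.04). Nr4a1, Atf3, Egr1 and Fos were lower on all 4 plates, and Jund on 3 of them. By size alone, all 10 members lay inside the 5th to 95th percentile of all genes measured (-2.40 to 1.88). Jund fell under the rule at -0.48 without plate s480s, -0.94 without s483s, -0.73 with equal weight for every cell, -0.67 after thinning, -0.92 with a pseudocount of 20 CPM and -0.83 without its highest cell. aSMC set much of the mural mean: Nr4a1 was at 2119 CPM there against 271 in PC and 144 in vSMC, while aEC alone held 457 CPM. With the mural mean taken over PC and vSMC alone, 1 member met the rule, Egr1 at -1.02. Atf3 was then at -0.31, Fos at -0.33 and Nr4a1 at 0.057. Jun (289 against 260 CPM) and Ier2 (556 against 438 CPM) were under the rule and changed sign between plates, and Jun also changed sign under the size factors of DESeq2.

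Within the mural labels, 8 members were higher in aSMC than in PC, against 3.09% of 12252 genes, and none was lower, against 3.2%. Fosb and Jun were the exceptions, since Fosb was read in under 50% of aSMC cells and Jun differed by 0.32. Atf3 differed by 3.55 (2.72 to 6.95 over plates), Nr4a1 by 2.95 (2.37 to 3.14) and Jund by 2.04 (1.31 to 2.98). Dusp1 differed by 1.72, Ier2 by 1.70, Fos by 1.63, Junb by 1.44 and Egr1 by 1.31, each higher on all 4 plates. By size alone, Atf3 and Nr4a1 passed the 95th percentile of all genes measured (2.38), and the other members did not. This count changed when cells with markers of another class were left out. Leaving them out of both labels kept 15 of 54 PC and 34 of 41 aSMC cells and left 4 members that met the rule, Atf3, Nr4a1, Jund and Dusp1. Fos in PC then stood at 2062 CPM in place of 1236, Junb at 1087 CPM and Egr1 at 1428 CPM, and the Fos difference was 0.93. With such cells left out of PC alone 5 members met the rule, and 8 with them left out of aSMC alone. Without plate s482s the Atf3 difference was 5.72, Junb at 0.94 lost its call, and Fosb met the rule at 1.80.

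A further comparison, aSMC against vSMC, was added after the values were seen. In aSMC 8 members were higher, against 2.81% of 11623 genes, and none was lower, against 3.36%. Nr4a1 differed by 3.83 (2.26 to 6.27 over plates), Jun by 3.04, Junb by 2.33, Fos by 2.30 and Dusp1 by 2.17. Egr1 and Atf3 differed by 2.20 each. By size alone, Nr4a1, Jun and Fosb passed the 95th percentile of all genes measured (2.67), and the other members did not. Jund differed by 1.11, was lower in aSMC on plate s480s, and fell under the rule without plate s169s (0.90), s482s (0.87) or s483s (0.82), with equal plate weights (0.85) and over cells of at least 150000 reads (0.85). Without plate s482s Fosb met the rule at 2.64. Ier2 differed by 0.70, and Fosb met the size but not the share of cells. Single plates set some of these values: Atf3 differed by 5.77 and Dusp1 by 3.00 without plate s169s, Jun by 2.02 without s480s and by 4.45 without s482s, and Jund by 2.40 without s480s. Without cells holding markers of another class, which kept 17 of 29 vSMC cells, Jund differed by 0.10, Jun by 3.85 and Nr4a1 by 4.57.

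In MG against capilEC, 9 members were higher, against 3.58% of 12320 genes, and none was lower, against 6.13%. The exception was Fosb, which differed by 3.14 but was read in 45.3% of MG cells. Atf3 differed by 5.49 (4.60 to 6.55 over plates, and 6.13 without plate s169s), and Egr1 by 5.25 (4.99 to 5.63). Nr4a1 differed by 3.82, Junb by 3.30, Fos by 3.14 and Jun by 2.98. Ier2 (2.30), Jund (2.23) and Dusp1 (2.22) differed least, and only these lay under the 95th percentile of all genes measured (2.87). All 10 genes were higher on all 4 plates. The members' median was 3.14, against -0.19 for all genes.

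Markers of brain macrophages other than microglia were looked at beside these results. The 6 perivascular macrophage markers summed to 110 CPM in MG and 153 CPM in aSMC, where 4 of the 6 were at 0, and the microglia markers summed to 169.3 CPM in aSMC. Without the MG cells that passed 100 CPM of the macrophage list (130 of 137 kept), 9 members still met the rule against capilEC. Without the aSMC cells that passed 100 CPM of that list or of the microglia list (14 of 41 kept), 9 met it against PC and 8 against vSMC.

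**Figure D4:**
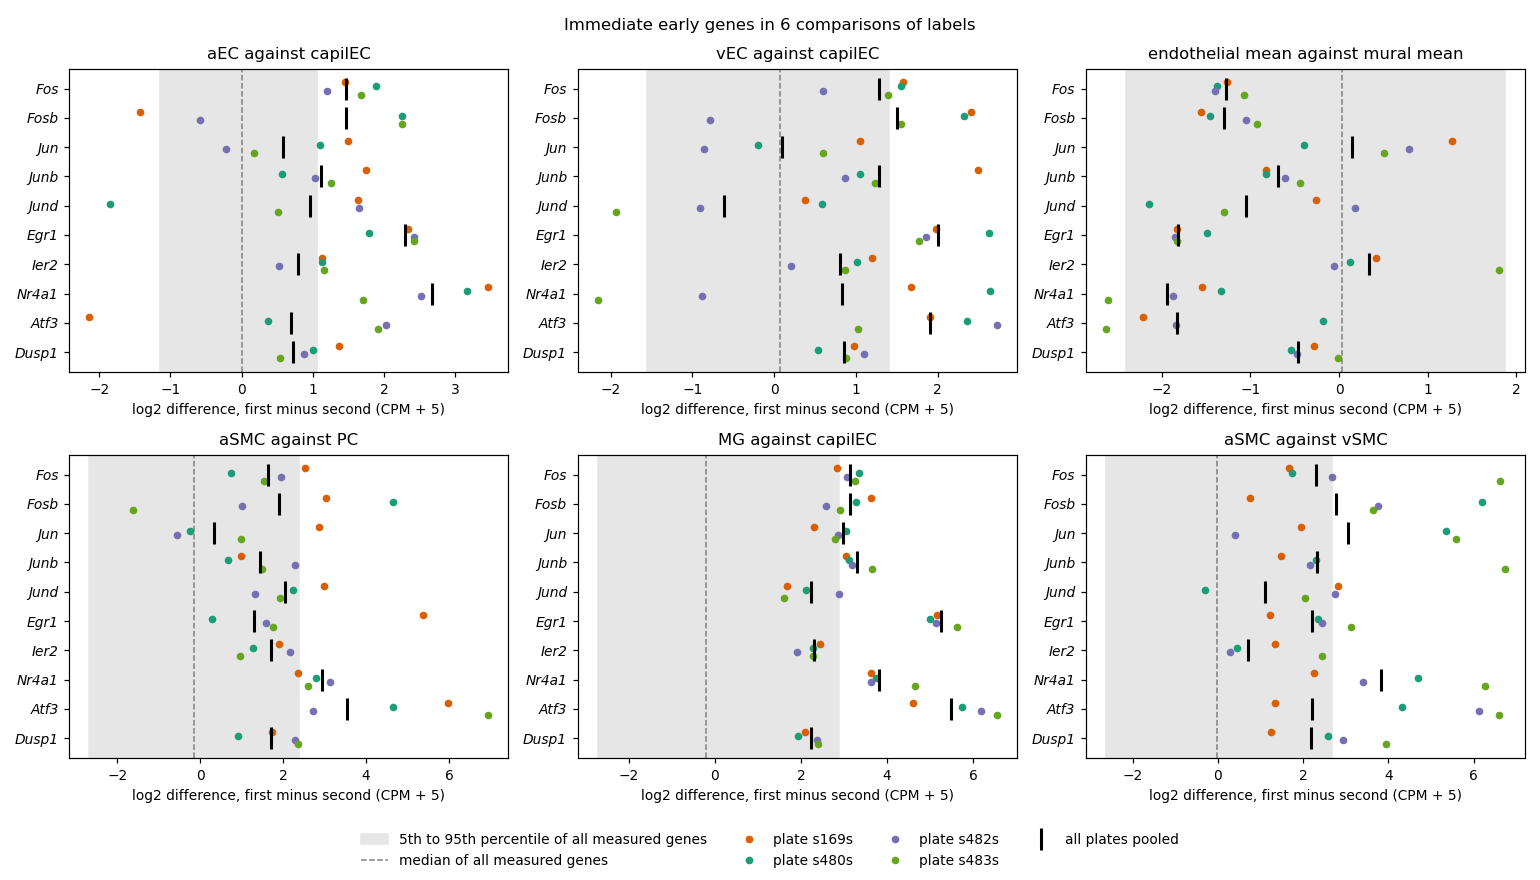
Difference of each gene in the 6 comparisons (log2 of CPM + 5, first label minus second), with a coloured point per plate, a black bar for all plates pooled, a grey band from the 5th to the 95th percentile of all measured genes and a dashed line at their median. In MG against capilEC all points lie to the right of the dashed line, and in aSMC against vSMC the points of single genes lie far apart.

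A further 5 lists placed the members beside their pathway. They were other AP-1 and bZIP genes (15), other early response transcription factors (22), other early feedback and signalling genes (38), upstream kinases and factors (20) and heat shock genes (15). The counts below are read against the same background percentages.

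Feedback and signalling genes held the most genes past the rule. In MG against capilEC, 15 of 33 measured were higher and 2 lower, with a median of 2.51. Nfkbiz, an atypical inhibitor of NF-kappaB, differed by 5.66 (1082 against 16.5 CPM), Socs3, a brake on cytokine signalling, by 4.09, and Tnfaip3, a brake on NF-kappaB, by 3.84. Plk2 (-1.91) and Cyr61 (-1.59), a matrix protein gene, were lower. In aSMC against vSMC, 11 of 33 were higher and none lower. Errfi1, an inhibitor of EGF receptor signalling, differed by 5.63 (1176 against 18.9 CPM), Nfkbiz by 3.45 and Ppp1r15a, a phosphatase subunit of the stress response, by 3.23.

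In aSMC against PC, 7 of 34 feedback genes were higher and 1 lower. Ctgf, a matrix protein gene, differed by 4.68 (245 against 4.77 CPM), Errfi1 by 2.80 and Ppp1r15a by 2.70, and Spry2, an inhibitor of growth factor signalling, by -2.90. In aEC against capilEC, 5 of 32 were higher and 1 lower, among them Gadd45g, a stress-inducible growth arrest gene (2.03), Cyr61 (1.63) and Ppp1r15a (1.28), and Dusp6, a phosphatase of ERK, was at -1.26. In vEC against capilEC, 7 of 31 were higher and 2 lower. Gadd45g (2.46), Nfkbiz (2.19) and Gadd45b (2.03) led the former, and Cyr61 (-1.85) and Dusp6 (-1.28) were the latter. In the endothelial mean, 4 of 34 were higher, led by Plk2 (1.98), Ier3 (1.55) and Nfkbia (1.53), and 4 lower, led by Errfi1 (-5.22), Ppp1r15a (-1.75) and Cyr61 (-1.52).

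The other early transcription factors differed from the members in direction in some comparisons. In the endothelial mean against the mural mean, 4 of 20 were higher and none lower, among them Klf2 (2.30), a flow-responsive factor, Id1 (1.43) and Klf4 (1.41). In MG against capilEC, 3 of 21 were lower, Id1 (-4.17), Id3 (-4.02) and Klf4 (-1.02), and Klf6 (1.01) was higher. In aSMC against PC, Klf4 (1.95), Klf2 (1.396) and Klf6 (1.10) were higher of 20 measured. One factor passed in each of aEC against capilEC (Klf4, 1.02, of 16) and aSMC against vSMC (Irf1, 1.60, of 20), and 0 of 19 in vEC against capilEC. Irf1 changed sign between plates there, from -3.09 to 6.23.

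Other AP-1 and bZIP genes passed in few cases. Atf4, a factor of the integrated stress response, was higher in MG than capilEC (1.82), in aSMC than PC (1.76) and in aSMC than vSMC (1.28). Ddit3 (1.63) and Cebpd (1.57) were also higher in MG, making 3 of 13, Cebpd (1.52) in vEC, 1 of 12, and Atf5 (3.11) in aSMC against vSMC, 2 of 11 with Atf4. Ddit3 in MG changed sign between plates, from -1.21 to 2.66. Upstream genes gave 0 of 20 in aEC, in vEC and in aSMC against PC. In MG, Rps6ka1 (2.69) and Map2k1 (1.70), kinases of the ERK pathway, were higher, and Mkl2 (-3.76) and Mapk3 (-1.07) lower. In the endothelial mean Mkl2 (1.92) and Elk3 (1.83), partners of serum response factor, were higher, and in aSMC against vSMC Elk3 (-3.04) and Mkl2 (-1.44) were lower. Mkl2 in aSMC against vSMC changed sign between plates, from -4.27 to 3.06.

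Heat shock genes, chaperones that respond to heat and unfolded protein, gave 0 of 15 in aEC against capilEC and 0 of 14 in aSMC against PC. In vEC, 2 of 15 were higher, Hspb8 (1.401) and Dnajb1 (1.28), and in the endothelial mean 1 of 15, Hspb8 (2.29). Hspb8 in vEC ran from -0.06 to 2.69 over plates. In MG, 3 of 15 were higher, Dnajb1 (2.30), Hspa5 (1.77) and Hspe1 (1.08), and Hspb1 (-3.46) was lower. In aSMC against vSMC, Dnajb4 (2.88) and Hspa8 (1.23) were higher, 2 of 15.

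The members were then compared with each other over the cells of a label, as Spearman correlations within plates of at least 20 cells, averaged over plates. Cells of a plate share preparation and depth, so these values are descriptions. In MG (127 cells on 3 plates) the 45 pairs had a median rho of 0.28, and Fos with Dusp1 was the strongest at 0.58. In aEC (109 cells on 3 plates) the median was 0.30, and Junb with Dusp1 led at 0.55. In capilEC (787 cells on 4 plates) the median was 0.15, and Fos with Dusp1 led at 0.38. The means over plates of all 45 pairs were above 0 in these 3 labels, but single plates fell below 0 for some pairs. Over plates, Nr4a1 with Atf3 ran from -0.22 to 0.56 in MG and Fosb with Atf3 from -0.15 to 0.25 in aEC. In capilEC, Jund with Ier2 ran from -0.11 to 0.13. Pairs of other genes are not given here. In PC (22 cells on 1 plate), which the plot of pairs leaves out, 43 of 45 were above 0, with a median of 0.28 and a lowest value of -0.15 for Fosb with Ier2. The mean of the members followed the number of genes read in a thinned cell with a rho of 0.24 in capilEC, 0.16 in aEC and 0.10 in MG, and the cell's reads with 0.07, 0.21 and 0.27. The part of depth in the pair values was not tested.

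**Figure D5:**
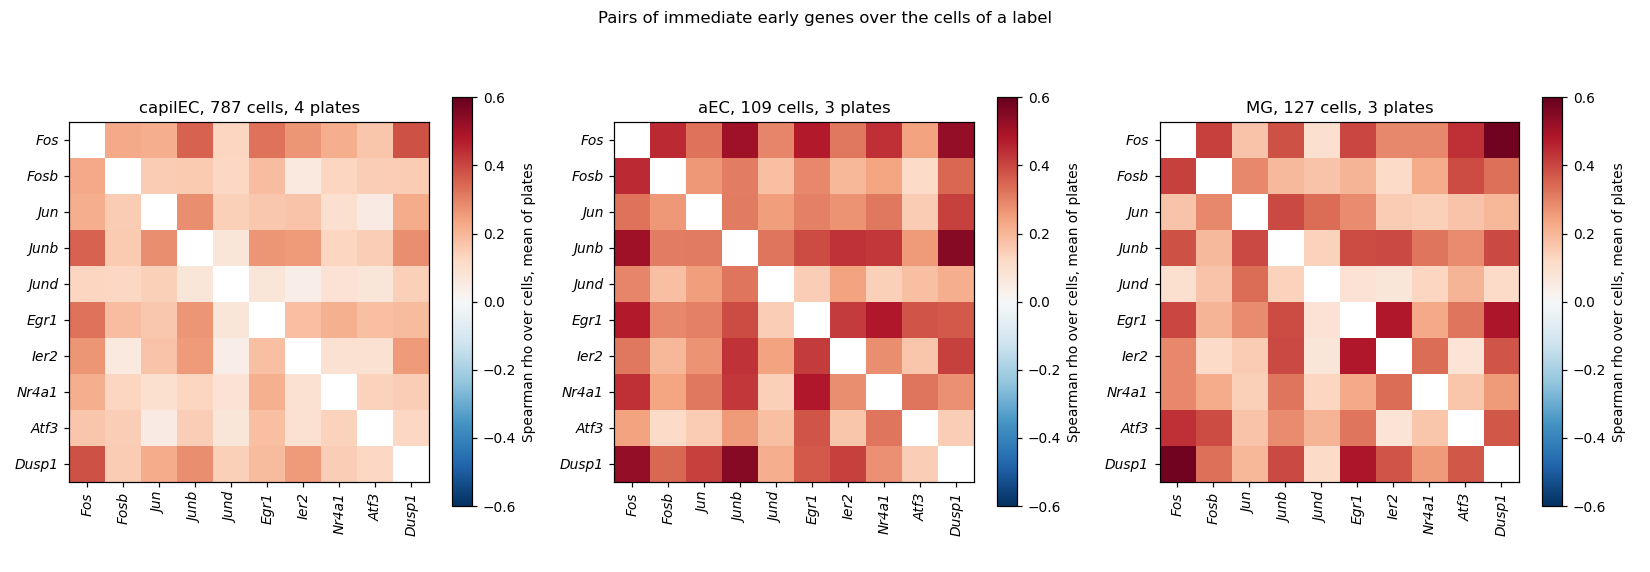
Spearman rho of each pair of genes over cells, as the mean of plates with at least 20 cells, in capilEC, aEC and MG (blue below 0, red above 0). Every pair is red in the 3 labels, Fos with Dusp1 is among the darkest, and Jund gives the palest rows.

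Genes whose pattern was most like the members were found over the 9 labels, which share plates and total depth. Among 4134 genes with sufficient level, Ppp1r15a had the highest Pearson correlation with the mean of the members (r = 0.97), followed by Phyhd1 (0.91), Cd82 (0.91), Pnrc1 (0.89), Zfp36 (0.89) and Btg1 (0.88). Over capilEC cells, among 2011 genes read in at least 50% of them, Zfp36, an RNA-binding protein that shortens the life of early transcripts, led with a rho of 0.36. Btg2 (0.30), Rhob (0.25), Ppp1r15a (0.24), Klf2 (0.24) and Klf4 (0.23) followed, against a median of 0.04 and a 95th percentile of 0.11 over all these genes. Ppp1r15a and Zfp36 were named by both measures. Of the 8 microglia markers read widely enough in capilEC, 4 also passed that 95th percentile, among them C1qc (0.16) and C1qa (0.13), subunits of complement C1q, and the summed list had a rho of 0.11 (-0.02 to 0.20 over plates). In the 302 of 787 capilEC cells with at most 100 CPM of that list, the 6 leading genes had a rho of 0.15 (Klf2) to 0.33 (Zfp36). Over plates Klf2 ran from -0.11 to 0.31 there and Zfp36 from 0.31 to 0.35. The others stayed above 0, but Klf4 ran from 0.01 to 0.69. No median or 95th percentile of all genes is given for these cells.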

How the data were processed

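The authors deposited a table of unnormalized read counts (whole numbers, genes by cells) and a label for each cell. The submitters' processing notes name Subread 1.4.6-p5, featureCounts and SAMtools 1.16.1, as well as both GRCm38 and GRCm39 without saying what each was for. The aligner, the annotation and any strand setting are not given in the sources used here. Every cell held at least 100021 reads, and 0 columns were left out.

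Counts were summed per label or per plate and label (plates from the prefix of cell names) and scaled to CPM. Differences are on log2(CPM + 5). Poisson and Clopper-Pearson intervals are at 95%. The size rule was tested on simulated data. Doublets were not called. One of the alternatives removed cells with a marker list of another class above 10% of that class's median. Named genes of other lists were the first 3 per list and direction among those meeting the size rule. Genes most alike were the first 6, leaving out members and mitochondrial, ribosomal protein, predicted and pseudogene names. The members, lists and rules were chosen with earlier results of these data known. Alternatives used edgeR 4.0.16 (TMM) and DESeq2 1.42.0 (size factors) for scaling only, equal weights for cells or plates, thinning, a depth minimum of 150000 reads, pseudocounts of 1 and 20 CPM, no minimum CPM or share, and leaving out plates or cells. Python 3.11.15, numpy 2.4.6, scipy 1.17.1, pandas 2.3.3 and R 4.3.3 were used. The check of perivascular macrophage markers and the comparison of aSMC with vSMC were added after seeing the data, as were the mural mean without aSMC, leaving marked cells out of 1 label alone, and the capilEC cells low in microglia markers.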

Additional observations from a re-analysis of the deposited data

Results flagged for a closer look

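In 70 sets of 4 plate values (10 genes in the 7 labels with 4 plates), 6 had 1 plate far from the others by Dixon's criterion, and chance flags about 1 in 20. Fos in aSMC was at 5371 CPM on plate s169s (7 cells), against 3440 to 3674 CPM on the others. Jun in aEC was at 686 CPM on plate s480s (26 cells), against 254 to 291 CPM. The other 4 lay in vSMC. On plate s169s (9 cells), Fosb was at 111 CPM against 0 to 0.762 CPM, and Atf3 at 699 CPM against 3.71 to 8.38 CPM. On plate s483s (8 cells), Junb was at 6.80 CPM against 330 to 517 CPM, and Ier2 at 38.3 CPM against 504 to 601 CPM. The cause was not tested.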

How the results depend on the processing

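Of 1080 differences of members under 22 alternatives, 1039 moved by no more than the spread between plates and 40 by more. The spread is the standard deviation of the differences on the 4 plates. It reached 2.70 log2 units (Fosb in aSMC against PC), so a count of small moves says little about stability. Egr1 in aSMC against PC fell from 1.31 to 0.80 without cells with markers of another class and lost its call, yet is among the 1039. The 1039 include 60 each from the settings without a minimum CPM or share, which change the rule and cannot move a difference. The only difference that met the size rule and changed sign was Nr4a1, at 0.057 in the endothelial mean against a mural mean without aSMC. There the count of members that met the rule was 1 in place of 5. The count of members that met the rule in aSMC against PC was 8, 4 without cells with markers of another class, and 5 with these left out of PC alone. Leaving them out kept 15 of 54 PC cells, and the cause was not tested. It was run without the astrocyte list, since no label gives that class a level. With each plate left out in turn, the counts were 4 to 5 in aEC against capilEC, 3 to 5 in vEC against capilEC, 4 to 5 in the endothelial mean, 8 in aSMC against PC, 9 in MG against capilEC and 7 to 8 in aSMC against vSMC. All 10 members had their highest level in MG or aSMC under each of the 10 alternatives run on levels. Scaling moved the median of all genes by over 0.1 log2 units in 5 comparisons: TMM by -0.18 in vEC, 0.16 in aSMC against PC, 0.23 in MG and 0.12 in aSMC against vSMC, and DESeq2 size factors by -0.19 in the endothelial mean, 0.13 in aSMC against PC and 0.36 in MG. No paired analysis was possible because each label is 1 sample, with no replicate numbers to block on; differences within the 4 shared plates are given in the text as spread. With 9 FB and 17 CP-EC cells, their levels rest on few cells.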
